A study of Octopus bimaculoides with 95 samples.

Results

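The ova-specific genes are 200 genes of the octopus Octopus bimaculoides whose transcripts were concentrated in the sample of the female gonad labelled as ova. They were drawn from the 17527 genes with a numeric ID in the plate table of the series. A gene was taken when its specificity index tau over the 46 tissues of that table was at least 0.9, its mean was at least 10 TPM (a level corrected for transcript length and scaled to a fixed library total) in its top tissue, and that tissue was the ova. Tau is 0 for a gene with the same log level in every tissue and 1 for a gene found in a single tissue. In the ova 398 genes passed, and the 200 with the highest level there were kept. The members were therefore chosen by their level in ova against the other tissues, and those levels are given as a description without a test. Just inside the limit lay LOC106874592, LOC106881864, LOC106874255, LOC106867058 and LOC106875892, at 32.8, 32.2, 32.0, 31.5 and 30.9 TPM in ova. Just outside lay LOC106877603, LOC106883060, LOC106875747, LOC106874060 and LOC106868500, at 30.5, 30.4, 30.3, 30.2 and 30.05 TPM. The level thus fell smoothly across the limit.

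An egg cell accumulates RNA, protein and yolk while it grows in the ovary, and the stored maternal RNA directs the early embryo until its own genome is transcribed. Genes used almost entirely in egg cells are known in many animals for roles in meiosis, the egg coat, storage of maternal RNA and the silencing of mobile DNA. In cephalopods the growing egg is wrapped by follicle cells that fold into it, so that ovarian RNA can come from the egg and from these cells. The deposited table and the RefSeq gene table give the members no symbol beyond a number and no product, so no role is assigned to any of them and the ova label could not be checked against a named marker of egg or follicle cells.

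RNA from whole tissue was sequenced, and the plate table holds 85 libraries, 1 of ova, 33 of 24 other non-neural tissues and 51 of 21 neural tissues. In this split the retina and the optic gland count as non-neural. The 10 libraries of the second table are 5 single neurons and 5 pieces of whole neural tissue. The ova have 1 library, so their values carry no replicate error, and where a tissue has 2 or 3 libraries the labels do not say that these came from separate animals. Read numbers were recovered from the steps in the TPM values. The ova library had 13410951 recovered reads, the most of all, against 35794 to 7480140 in the other 84 plate libraries. Added RNA spike-ins, which were removed before rescaling, took 11.7% of the ova library and between 1.27% and 94.1% of a plate library. In whole tissue, fewer cells of a type and less RNA per cell cannot be told apart.

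The members formed a steep series in ova, led by 1 gene and followed by a long tail. Their ova level had a median of 72.5 TPM, with quartiles of 46.7 and 195 TPM, a lowest value of 30.9 and a highest of 2809 TPM. At least 100 TPM was reached by 78 members and at least 500 TPM by 18. Together they made up 3.62% of the ova TPM, and the 12 highest held 33.3% of the members' sum. Among all genes in ova the members ranked from 16 to 3763, so many genes that were not specific were as abundant there. In all, 11346 genes reached 1 TPM in ova, and 3763 were at or above the level of the lowest member. Reads could be recovered for 193 of the members, with 235 to 54326 reads each in ova and a median of 2073. The exact 95% Poisson interval around a member's ova level was therefore narrow, at 0.842% to 13.01% of the value on either side, and it covers counting error only.

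LOC106871157 had 2809 TPM in ova (54326 reads, 95% interval 2785 to 2832). It was above 0 in 18 of the other 84 libraries and reached 47.9 TPM in the second superior frontal lobe library and 14.0 TPM in the aorta, on 28 and 47 reads. The gap between ova and the highest other tissue mean, 16.0 TPM in the superior frontal lobe, was 176-fold. LOC106873139 followed at 1131 TPM in ova, against at most 6.99 TPM in any other plate library. LOC106869400 had 1050 TPM, against at most 5.88. GeneID:106869734, which has no entry in the RefSeq table, had 916 TPM in ova and up to 12.0 TPM in other plate libraries. These 4 genes stood far above every other plate library, with no overlap. LOC106880001 had 912 TPM in ova against a highest other value of 10.2 TPM, in the third subvertical lobe library. LOC106880002 had 852 TPM against 13.1 in the aorta, and LOC106882963 had 843 TPM against 8.75 in the third subvertical lobe library. LOC106882781 differed from the rest of the 12 by its spread outside the ova. It had 828 TPM in ova, 20.4 in the second superior frontal lobe library and 15.0 in the first library of the optic lobe periphery, and it was above 0 in 33 other libraries. LOC106883782 had 794 TPM in ova and at most 12.4 elsewhere, and LOC106874728 had 714 TPM and at most 9.45. LOC106868666 and LOC106878030 completed the 12, at 619 and 613 TPM in ova and at most 6.27 and 7.62 TPM elsewhere. For each of the 12 the ova value lay above all other 84 plate libraries. Every level given here is of the plate table, and the single neurons of the second table are described below.

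**Figure D1:**
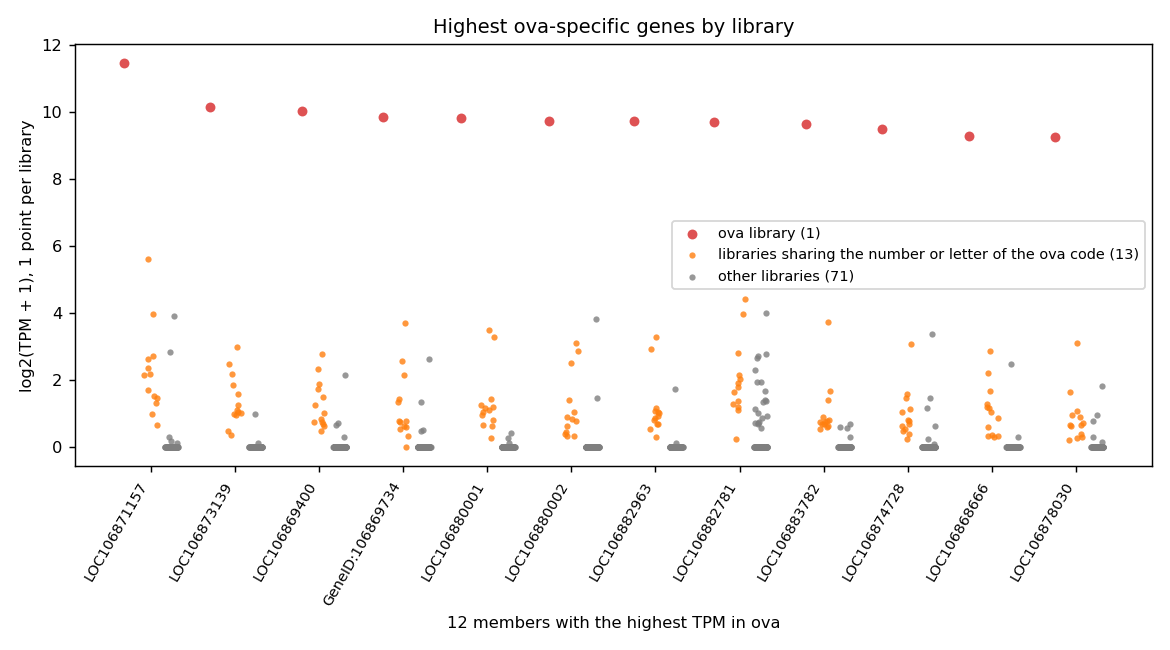
Level of the 12 highest members, log2(TPM + 1), with 1 point per library: the ova library, the 13 libraries whose label code shares its number or letter, and the other 71 libraries. The ova point lies between 613 and 2809 TPM, while the sharing libraries have medians of 0.587 to 3.42 TPM and the other 71 a median of 0 for each gene.

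Outside the ova most members were listed at 0 in most libraries. A member was above 0 in a median of 17 of the other 84 libraries (range 1 to 52) and reached 1 TPM in a median of 7 (range 0 to 28). The median over the other libraries was at most 0.217 TPM for any member, and 193 members were listed at 0 in a majority of them. The other libraries held 1 TPM or more of a median of 7.75% of the members, against 47.6% of all genes. A value of 0 has a limit set by depth. The level that 3 reads would give had a median over members of 0.161 to 39.4 TPM by library, with a median of 0.953, so low levels were not detectable in the shallowest libraries. The ova level divided by the highest other tissue mean had a median of 28.2 (range 1.28 to 718). It was at least 10 for 158 members and at least 100 for 43, and it was under 5 for 22 and under 2 for 4. GeneID:106882981 had the widest gap, with 566 TPM in ova and 0.787 TPM as its highest other tissue mean, in the left mediolateral vertical lobe. Its values in the other plate libraries reached at most 1.63 TPM. In the second table it had 6.21 TPM in the neuron of the optic lobe periphery. In 4 members, GeneID:106874833, LOC106879733, LOC106873902 and LOC106881864, no other plate library reached 1 TPM. They were picked out after their values were seen. In the second table they had 32.2, 12.9, 21.7 and 40.2 TPM, in that order, in the neuron of the optic lobe periphery.

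**Figure D2:**
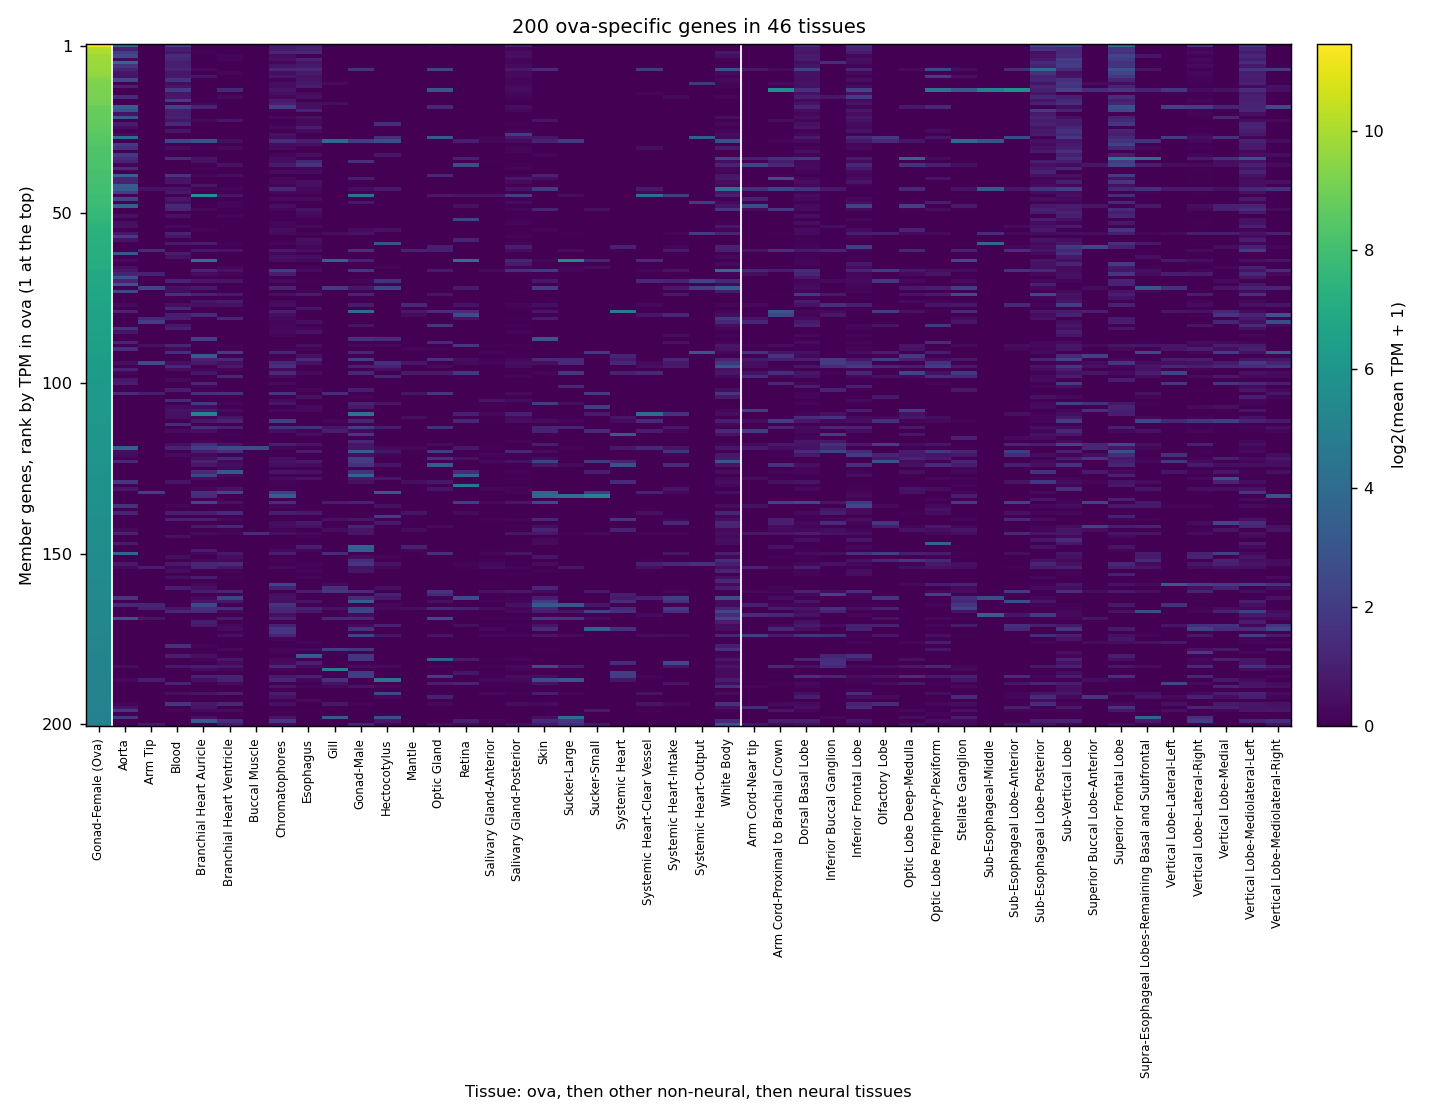
Tissue means of the 200 members as log2(mean TPM + 1), with members from the highest to the lowest ova level down the page and the 46 tissues across, ova first. The ova column runs from 2809 down to 30.9 TPM, and the faint vertical streaks mark tissues such as the aorta, the superior frontal lobe and the subvertical lobe, which were the highest other tissue for 28, 21 and 18 members.

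The other tissue with the highest mean was the aorta for 28 members, the superior frontal lobe for 21, the subvertical lobe for 18, the white body (the blood-forming organ) for 11, the male gonad for 10 and the blood for 8. These counts moved with a feature of the labels. The label of each plate library opens with a code of a number and a letter, and the table is named for a 96-well plate. The code of the ova is 4 and H. Another 6 libraries carry the number 4 and another 7 the letter H, and the grouping was looked at after the values had been seen. In these 13 libraries 17 to 20 of the 20 highest members were above 0, against 0 to 15 in the 71 libraries that share neither. Of those 71 libraries, 69 had 5 or fewer of the 20 above 0 and 24 had none. The exceptions were the aorta with 15 and the white body with 11, and only these libraries came near the sharing ones. Of all 200 members, the sharing libraries had 91 to 147 above 0 (median 124), against 2 to 140 (median 29) in the others. The white body, at 140, lay within the range of the sharing libraries, and the aorta, at 86, and the second auricle library, at 80, lay below it.

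The order of the members also followed the code. Across the 200 members, Spearman's rho between a library's level and the ova level was 0.133 to 0.581 in the sharing libraries. It was -0.315 to 0.410 in the other 71, with a median of -0.0863, and the aorta alone among them reached the lowest value of the sharing libraries. These coefficients are descriptions over genes, which share a library and its depth. For every 10000 reads of the 20 highest members in the ova library, the sharing libraries had 1.28 to 5.91 reads (median 3.70). The others had a median of 0.0279, but the 2 groups overlapped on this measure. Among the others the aorta had 6.63, the anterior subesophageal lobe 3.48, the optic gland 1.67 and the white body 1.36. The sharing libraries were deeper, with a median of 2730615 recovered reads against 1258332. In the 14 non-sharing libraries at or above the first of these depths, 0 to 11 of the 20 were above 0 (median 2). The sharing libraries, with 17 to 20 of the 20 above 0, include shallower ones, from 401013 recovered reads up. The 2 sides are thus not matched for depth, and the part of depth was not tested.

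Libraries of 1 tissue differed along the same line. The members summed to 436 TPM in the second superior frontal lobe library, whose code has the number 4, against 73.1 and 81.9 TPM in the other two, whose codes share nothing with the ova. The third subvertical lobe library, with the number 4, summed to 319 TPM, against 60.1 and 69.8 TPM in the others. In the left mediolateral vertical lobe the first library, with the number 4, summed to 251 TPM and the third, with the letter H, to 85.6 TPM, against 34.0 TPM in the library that shares neither. In each of the 3 tissues the library or libraries with a shared number or letter were the highest. Without the 13 libraries, 42 other tissues remained. All 200 members then still met the rule, 8 were listed at 0 in every other library kept, and the median ova level over the highest other tissue was 26.1 for the rest. The highest other tissue was then the aorta for 44 members, the white body for 19 and the male gonad for 11. For the 200 most abundant male gonad-specific genes, whose library shares a number or letter with 15 others, 1 to 13 of the 20 highest (median 9) were above 0 in those libraries, against 0 to 11 (median 2) in the rest. What the code stands for is not given in the sources used here, and its part in the members' low levels outside the ova was not tested.

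**Figure D3:**
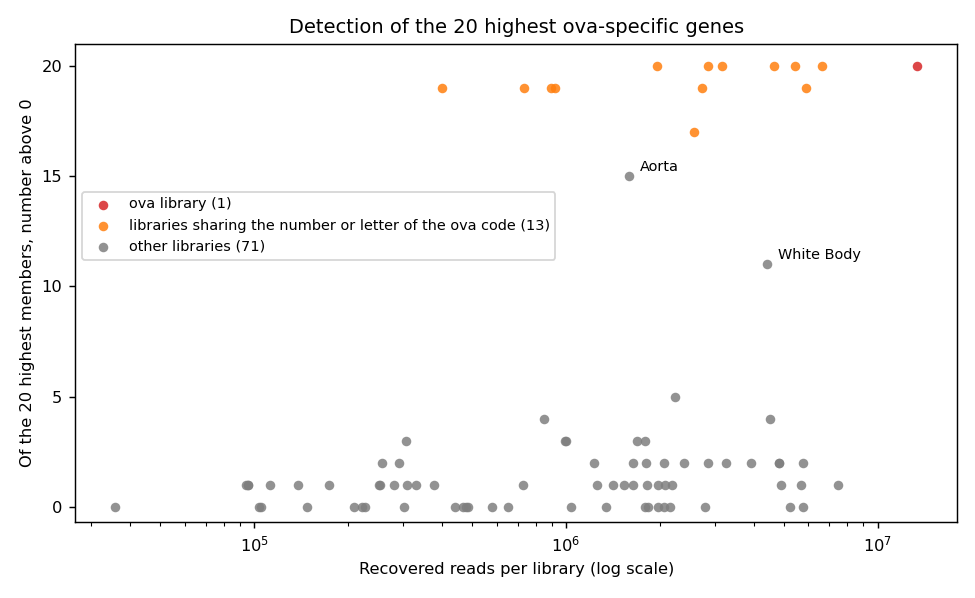
Number of the 20 highest members above 0 against recovered reads on a log axis, with 1 point per plate library. The 13 libraries sharing the number or letter of the ova code have 17 to 20, from 401013 recovered reads up, while of the other 71 only the aorta (15) and the white body (11) exceed 5.

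A small group of members had a high level in another tissue, highest in a library sharing neither number nor letter with the ova. LOC106867637 had 239 TPM in ova, 156 in the second library of the branchial heart auricle (the intake chamber of a heart that drives blood through the gill) and 9.62 in the first, with 19.99 TPM in the male gonad and 17.9 in the clear vessel of the systemic heart. Its auricle mean of 55.8 TPM, the highest of any member in another tissue, rested on 1 library. LOC106872272 had 571 TPM in ova. Its next values were 134 TPM in the second library of the proximal arm cord, 56.2 in the first of the optic lobe periphery, 53.3 in the anterior subesophageal lobe and 32.3 in the middle subesophageal lobe. These are all neural, and the gene was listed at 0 in the male gonad. The middle subesophageal lobe library was shallow, with 95809 recovered reads, of which 15 fell on members. LOC106882947 had 142 TPM in ova, 42.6 in the large sucker, 30.9 and 21.1 in 2 retina libraries and 26.3 and 23.1 in 2 auricle libraries. LOC106867057 had 56.2 TPM in ova, 36.1 in the small sucker, 17.2 in the large sucker and 13.6 in skin, all of the body surface. It also had 19.1 TPM in 1 library of the right mediolateral vertical lobe. That library was shallow, with 103325 recovered reads, of which 4 fell on members. In the second chromatophore library, whose code has the letter H, LOC106867057 made 12.2% of the members' sum of 143 TPM. The last of these genes had an ova level only 1.55 times its highest other tissue mean.

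A mean over libraries can hide a higher single library. For 3 members, picked out after their values were seen, 1 other plate library exceeded the ova. GeneID:106874581 had 69.2 TPM in ova and 91.3 in the second auricle library. LOC106870516 had 57.6 TPM in ova and 67.4 in the third retina library. LOC106874255 had 32.0 TPM in ova and 37.6 in the second library of the remaining basal and subfrontal lobes. These retina and basal lobe libraries were shallow, with 105421 and 281330 recovered reads, of which 33 and 34 fell on members. Both values thus rest on few reads, and their excess over the ova is within reach of counting error. The smallest gap to a tissue mean was in LOC106873794, with 34.8 TPM in ova (95% interval 32.6 to 37.1) and 27.2 TPM in the gill. The gill was its only other plate library at 1 TPM. Summed over members, the second auricle library reached 421 TPM, of which LOC106867637 made 37.2%, and the second proximal arm cord library 207 TPM, of which LOC106872272 made 64.6%.

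The male gonad, the other gonad of the series, held the members at low levels, but more of them than most other libraries. It too has 1 library, so the comparison has no replicate check. Of the 200 members 124 were listed at 0 there and 45 (22.5%) reached 1 TPM, against 58.8% of all genes. The rule asked for low levels in all tissues but the ova, so nothing is read from the gap to all genes. Over all plate libraries but the ova, the share of members at 1 TPM had a median of 7.75% and a highest value of 42.5%. The members summed to 203 TPM in the male gonad, against a median of 69.9 TPM over these libraries. The reverse share was 29.5%, since 59 of the 200 most abundant male gonad-specific genes reached 1 TPM in ova. For 117 members at 0 in the male gonad a floor of 3 reads per library could be set, from its 1979054 recovered reads. These were at least 14.6-fold to 3365-fold higher in ova (median of the bounds 165), the last for LOC106871157. For the 56 members with more than 3 reads in the male gonad, the ova level was 3.66 to 375 times that of the male gonad (median 26.8). Of the 12 highest members only LOC106882781 had any reads in the male gonad, 4 reads or 2.21 TPM (95% interval 0.602 to 5.66). The 4 members highest there were LOC106867637 with 239 TPM in ova and 19.99 in the male gonad (14.5 to 26.8), GeneID:106874581 with 69.2 and 18.9 (15.3 to 23.1), GeneID:106878720 with 97.6 and 16.4 (12.6 to 21.1), and LOC106883668 with 58.7 and 12.0 (8.91 to 15.8). None of the 4 was confined to the gonads. The first 2 were high in the second auricle library, GeneID:106878720 reached 24.7 TPM in the systemic heart, and LOC106883668 reached 33.0 TPM in 1 retina library.

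The 10 libraries of the second table were not used to choose the members. They were scaled separately, so levels are set beside the plate table only as shares and ranges. In the 5 whole tissues 5.5% to 13.5% of the members reached 1 TPM, against 47.8% to 56.4% of all genes, and no member reached 10 TPM. The members summed to 45.6 to 87.0 TPM in these libraries. In the 5 single neurons 12.5% to 65.5% of the members reached 1 TPM, against 36.0% to 77.1% of all genes. The neuron of the optic lobe periphery stood out, with 131 members at 1 TPM, 96 (48%) at 10 TPM, against 61.7% of all genes, and a sum of 5571 TPM. The neuron of the optic lobe medulla followed with 119, 74 and 2308 TPM. The lowest value above 0 was 0.934 TPM in the periphery neuron and 0.701 in the medulla neuron, so nearly any detected transcript counts as present there, while in the whole tissues it was at most 0.00341 TPM. In the other 3 neurons 7 to 17 members reached 10 TPM. Across the 10 libraries 9 members were listed at 0 throughout.

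The 4 members highest in the second table all peaked in the periphery neuron. LOC106869280 had 434 TPM there, 60.7 in the stellate ganglion neuron, 53.1 in the medulla neuron, 0.862 in the large efferent neuron and 0 in the amacrine neuron, and at most 0.600 in whole tissue. In the plate table it had 52.1 TPM in ova and at most 3.86 elsewhere. LOC106870592 had 383 TPM in the periphery neuron, 66.6 in the medulla neuron, 2.43 in the large efferent neuron and 0 in the other two and in all whole tissues. LOC106877998 had 277 TPM in the periphery neuron, 74.6 in the amacrine neuron, 23.6 in the medulla neuron and 1.06 to 2.73 TPM in whole tissue. LOC106876638, a long non-coding RNA by its RefSeq class, had 219 TPM in the periphery neuron, 0 in the other 4 neurons and 0.602 to 1.91 TPM in whole tissue. Of the 4, LOC106876638 alone was above 0 in no neuron but that of the periphery, and all 4 were low in the whole tissues of the same table. LOC106871157, the most abundant member in ova, was listed at 0 in all 10 libraries, and so was LOC106874728. The other members named above as highest in ova each had a value above 0 in some single neuron. Their peaks ran from 4.75 TPM for LOC106882963, in the periphery neuron, to 95.2 TPM for LOC106880002, in the amacrine neuron. How reads were spread over genes in so little starting RNA was not tested.

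**Figure D4:**
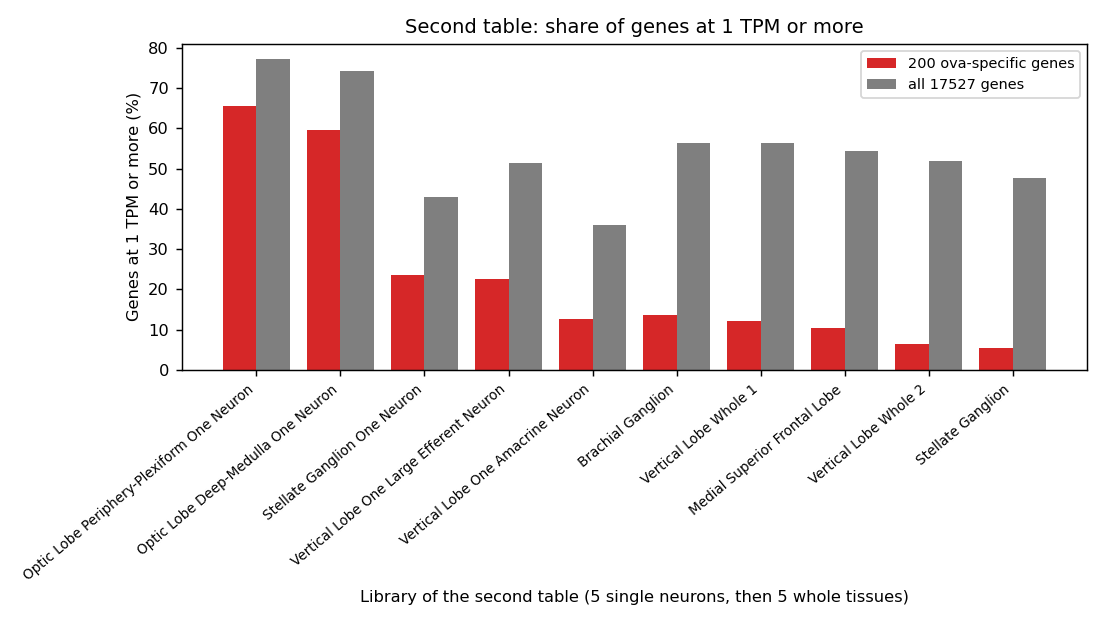
Percent of the 200 members and of all 17527 genes at 1 TPM or more in each library of the second table, single neurons first. Members lie below all genes in every library, by the least in the periphery neuron (65.5% against 77.1%) and by the most in the whole tissues (5.5% to 13.5% against 47.8% to 56.4%).

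With the ova left out, the members' low levels were compared between 21 neural and 24 non-neural tissues, a contrast that has replication. The test was limma on tissue means of log2(TPM + 1) over 13763 genes that reached 1 TPM in at least 3 tissues, with calls at a Benjamini-Hochberg adjusted p under 0.05 and a log2 difference of at least 1 in size. Of the members 116 were tested and 84 were too low. Of the members tested 1 was called, higher in neural tissue (0.862%), against 24.4% of all genes tested, 19.2% higher and 5.20% lower. The rule had used these same tissue means and asked for low levels in all tissues but the ova, which leaves little room for a log2 difference of 1, so nothing is read from the low share of members called. None was called lower. At an unadjusted limma p under 0.05 there were 20 members, 9 of them lower in neural tissue. At an adjusted limma p under 0.05 there were 12, 5 of them lower. The share of all genes tested at these limits was not taken, so nothing is read from these counts. The median difference was 0.04 over the members tested and 0.23 over all genes tested, on the log2 scale. On TPM as deposited these medians were -0.04 and 0.06, with quantile scaling -0.08 and -0.06, and with median ratio scaling -0.09 and -0.12. Without the libraries sharing the ova code they were -0.015 and 0.202. The sign of the members' median thus turned with the scaling and with the libraries used. The share of lower genes among those called was 21.3% here, 38.8% on TPM as deposited, 49.6% with quantile scaling and 57.5% with median ratio scaling.

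The gene called was LOC106872272. It had 0, 0 and 134 TPM in neural libraries (lowest, median, highest), above 0 in 22 of 51, against 0, 0 and 7.40 TPM in non-neural libraries, above 0 in 5 of 33. The 2 groups overlapped at 0. Tissue means averaged 8.52 ± 15.5 TPM in neural tissues (SD, n = 21) and 0.519 ± 1.60 TPM in non-neural tissues (SD, n = 24), a log2 difference of 1.05 ± 0.33 (SE, adjusted p 0.0103 in limma). The difference sat at the limit for a call. It fell below 1 when any of 5 libraries was left out, the first of the optic lobe periphery, the third of the subvertical and of the inferior frontal lobe and the second of the proximal arm cord and of the stellate ganglion, with values of 0.94 to 1.00. It was 0.98 without the libraries sharing the ova code.

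Little in their annotation set the members apart from other genes. Of the members 180 (90%) have a protein-coding transcript accession and 16 (8%) a non-coding one, against 89.9% and 8.81% of all genes. A single transcript in the table was the case for 171 members (85.5%), against 77.1% of all genes. In the RefSeq table of assembly ASM119413v2, 181 members (90.5%) had an entry, against 88.3% of all genes: 170 protein-coding genes, 9 long non-coding RNAs and 2 pseudogenes. The coding members had a median of 76.3 TPM in ova and the non-coding ones 52.3 TPM. LOC106876638 was the most abundant long non-coding RNA, at 296 TPM in ova. It had up to 48.3 TPM in another plate library, the third of the remaining basal and subfrontal lobes. The 2 pseudogenes were LOC106880506 at 155 TPM and LOC106881188 at 50.2 TPM.

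Some members lay next to each other in the genome. Of the 181 placed members 23 (12.7%) formed 10 runs of neighbouring measured genes, the longest of 4. Members were 1.17% of the 15476 measured genes placed. This is their share of all genes and not the share of genes that have a member beside them. When every RefSeq entry counts, including genes not measured here, 9 runs with 21 members remained. The set of male gonad-specific genes was alike in this, with 27 of 182 placed genes (14.8%) in 13 runs, the longest of 3. Of the 333 non-members next to a member, 10 (3.00%) passed the rule in ova without reaching the 200 highest, against 1.15% of the 15295 placed non-members. Their median ova level was 6.72 TPM, against 5.00 TPM in all placed non-members.

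The run of 4 holds the most abundant member. LOC106871155, LOC106871156, LOC106871157 and LOC106871217 had 149, 554, 2809 and 611 TPM in ova, and each was listed at 0 in the male gonad. On one side the next gene, LOC106871158, was no member: it had 267 TPM in ova but up to 480 TPM elsewhere, with a tau of 0.395. On the other side LOC106871215 had 9.55 TPM in ova and a tau of 0.968, so it missed the rule only by its level. In the run of 3, LOC106880002, LOC106880001 and LOC106880007 had 852, 912 and 157 TPM in ova. In the other plate libraries they had at most 13.1, 10.2 and 3.10 TPM. This run is flanked by LOC106880004, a broadly expressed gene with 388 TPM in ova and a tau of 0.149. On its other side lies LOC106880006, with 0.107 TPM in ova. The other 8 runs hold 2 members each, and the one with the highest ova level is described: LOC106873139 and LOC106883782, with 1131 and 794 TPM in ova. Beyond them lies LOC106870590, at 0 in every plate library, and then LOC106870592, another member, with 313 TPM. Ova levels thus differed within the runs of 4 and 3, and the genes at the edges of these runs were lower in ova or were expressed more widely. Whether neighbours are near-identical copies that share reads could not be checked without their sequences.

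**Figure D5:**
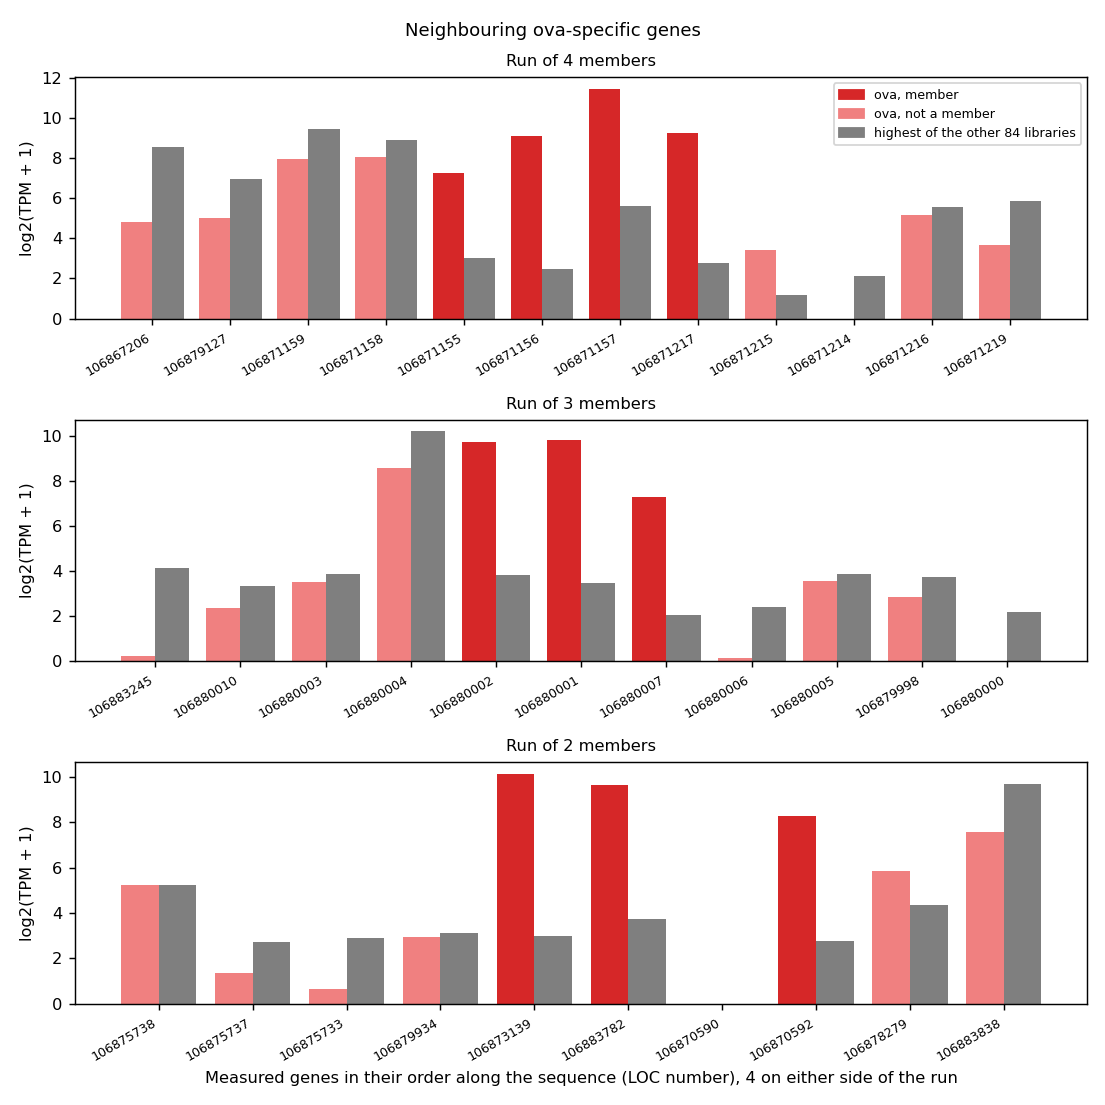
Level of the genes in and around 3 runs of neighbouring members, log2(TPM + 1), in the ova library and in the highest of the other 84 libraries, in their order along the sequence. Members in the run of 4 have 149 to 2809 TPM in ova against at most 47.9 TPM in the other 84 libraries. The next genes on either side have 267 and 9.55 TPM in ova.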

How the data were processed

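RNA-seq of whole tissue and single neurons was analysed from the 2 deposited tables. Per the file headers and the values, the authors deposited TPM per transcript. The submitters' processing notes list edgeR 3.14.0, featureCounts, STAR 2.3 and Trimmomatic 0.32. What each was used for, its settings and the build were not given in the sources used here.

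Spike-ins were dropped, each library was rescaled to 1000000, and each gene took its transcript of highest mean. Reads were recovered from the TPM steps for 23987 of 26357 transcripts (tolerance 0.01 reads). Totals were summed over the transcript taken for each gene. Those of them with recovered reads carried 62.6% of the ova TPM, so totals are lower bounds. Tau used tissue means of log2(TPM + 1). Differences are on that scale and understate low genes. Neural and non-neural tissue means were compared with limma 3.58.1 in R 4.3.3 with a mean-variance trend and Benjamini-Hochberg adjustment. With no statement that libraries are separate animals, p-values measure the spread between tissues as sampled. Recovery and test were checked on simulated data. Other steps used Python 3.11.15, pandas 2.3.3, numpy 2.4.6 and scipy 1.17.1.

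Genes were named by rule: the 12 members highest in ova, the 4 highest in another tissue mean, in the male gonad and in the second table, the 5 on either side of the limit, those called between neural and non-neural tissues, and those of the 3 longest runs of neighbours. Runs of 2 tied for the last place, and the one with the highest ova level was taken. Other genes named were picked out after their values were seen. The members, lists and tests were chosen with earlier results of these data known. RefSeq entries were used for class and gene order only; sequences were not analysed here.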

Additional observations from a re-analysis of the deposited data

How the results depend on the processing

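Other settings run were pseudocounts of 0.5 and 2 (as log2(TPM/c + 1), so that 0 stays 0), TPM as deposited and the mean over transcripts. Quantile and median ratio scaling, a minimum of 20 TPM or none, and libraries left out were also run. Under these settings 175 to 200 of the members still met the rule, and 175 to 200 stayed among the 200 highest. Leaving out 1 library at a time, in tissues with 2 or 3 libraries only, gave 198 to 200 for both. Tissues with 1 library, such as the aorta and the male gonad, were not left out in this way. The median ova level was 72.5 TPM, and it was 64.0 TPM on TPM as deposited, 42.0 with quantile scaling and 60.6 with median ratio scaling. The count of members called between neural and non-neural tissues was 1. It was 0 with a pseudocount of 2, on TPM as deposited, with quantile scaling, with median ratio scaling, with libraries as the unit and without the 13 libraries sharing the ova code, which was added after seeing the data. The difference of LOC106872272 was then 0.83, 0.61, 0.99, 0.90, 0.90 and 0.98 in that order. Leaving out 1 library from the same tissues with 2 or 3 libraries gave counts of 0 to 1. The cause was not tested. No paired analysis was possible because the ova have 1 library and the replicate numbers of different tissues name libraries without linking them to one animal. Every value in ova, the male gonad, the aorta and the white body rests on 1 library. Depth limits what a value of 0 means in the shallowest libraries.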
